A study of Mus musculus with 13 samples.

Results

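The genes described here are 43 mouse genes of the lysosome, listed by name, of 24328 genes in the deposited tables. They comprise 8 cathepsins, which cut proteins; 9 glycosidases, which remove sugars from glycoproteins, glycolipids and glycogen; 6 other hydrolases; 3 soluble cofactors; 8 lysosomal membrane proteins; 7 genes of the proton pump (V-ATPase); and the 2 transcription factor genes Tfeb and Tfe3. They were measured by mRNA sequencing in 13 libraries from mouse bone marrow. One library each came from wild-type granulocyte-monocyte progenitors (GMP), from leukemia stem cells (LSC) and from mature acute myeloid leukemia cells (mAML) of a tumor. The other 10 came from LSC exposed to A-485, with 2 libraries at each of 0, 8, 24, 48 and 72 h; the 0 h cells were untreated. The leukemia cells carried the MLL-AF10 fusion and were grown in serum with WEHI-conditioned medium, a source of interleukin 3. A-485 inhibits the acetyltransferase activity of p300 and CBP, which acetylate histones at active enhancers. The labels name no A-485 dose, no vehicle control, and no mouse strain or clone. Only the 0 h cells were untreated, so changes under A-485 include any change with time in culture, which was not tested. Nothing states whether both libraries of a time had their own culture, so p-values measure only the spread between these libraries, which may be technical.

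Lysosomes degrade proteins, glycans and lipids that reach them by endocytosis, phagocytosis or autophagy. The V-ATPase pumps protons into the lumen, and most of the soluble hydrolases work best at the low pH that results. Tfeb and Tfe3 belong to the MiT/TFE family, whose members bind E-box elements in the promoters of many lysosomal genes, and mTORC1 on the lysosome holds them in the cytoplasm when nutrients are ample. Myeloid cells use lysosomal enzymes both for housekeeping and, after maturation, for digesting ingested material.

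Promoter sequences are shown for 3 members named below whose promoters hold the element bound by MiT/TFE factors and whose RNA moved in different ways. The sequences come from RefSeq promoters on GRCm38.p6, which cover 250 bases before to 50 after a transcription start. Of the 43 members, 37 were matched by symbol. The E-box CACGTG, which reads the same on both strands, was found in 12 of these 37 genes (32.4%) and in 8.09% of 27025 genes with a promoter. The longer form TCACGTGA, also the same on both strands and always holding the E-box, was found in 6 of the 37 (16.2%) and in 1.12% of all genes. These 6 were Ctsa, Ctsd, Gla, Mcoln1, Atp6v0d1 and Atp6v1a. In the 3 stretches below, capitals mark the longer form, the text runs in the direction of transcription, and all 3 are read from that build.
Ctsa, plus strand, chr2:164833730-164833802: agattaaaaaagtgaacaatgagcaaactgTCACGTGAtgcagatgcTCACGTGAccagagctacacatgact
Gla, minus strand, chrX:134601163-134601255: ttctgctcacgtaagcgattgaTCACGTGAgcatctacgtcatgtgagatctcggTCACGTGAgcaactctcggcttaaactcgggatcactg
Atp6v1a, minus strand, chr16:44139354-44139421: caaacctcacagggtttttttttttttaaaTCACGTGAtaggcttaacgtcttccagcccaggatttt
Gla held the longer form 2 times, 228 and 195 bases before the start, and its RNA was lower at every treated time. Atp6v1a held it once, 132 bases before the start, and its RNA was higher at every treated time. Ctsa held it 2 times around the start, and its RNA was lower at 8 h and higher afterwards. Among the genes with the longer form that are not shown, Mcoln1 RNA was higher at every treated time. Ctsd and Atp6v0d1 were called at no single time. A match describes the letters in this window and is not a measured binding site.

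Library totals were 24532513 counts in GMP, 40468524 in LSC, 47257637 in mAML and between 6467762 and 9763278 in the time course. Levels of a gene between libraries are given in counts relative to library size (CPM) after TMM scaling, and levels between genes in TPM (transcripts scaled for length and to an equal sum in each library). Of the 10 time-course libraries, 3 stood apart by Wnt2, with 56.40 TPM in 8 h replicate 2, 59.28 in 24 h replicate 2 and 21.15 in 72 h replicate 1, against at most 2.17 TPM in the other 7. Among the 42 members tested, Gaa was higher, and Ctsb, Ctss and Tcirg1 were lower, by at least 0.5 on the log2 scale in each of these 3 libraries than in the other library of the same time. How many of all genes did so was not counted. Values without the 3 libraries rest on 1 library each at 8, 24 and 72 h and are given as a description only. This holds most for these 4 genes, which the 3 libraries picked out. The mean transcript length per read went from 3128 and 3115 nt at 0 h to 3786 and 3670 nt at 72 h, and TMM factors from 0.830 and 0.832 to 1.070 in both. Of 13 monocyte and macrophage markers outside the member list, 7 and 8 reached 1 CPM at 0 h, with sums of 3611 and 2721 CPM before TMM scaling, and 6 did in each 72 h library, with sums of 437 and 356 CPM. After TMM scaling Ly6c2 was at 3535 and 2498 CPM at 0 h and 14.8 and 17.5 CPM at 72 h. Progenitor markers were lower in 9 of 10 at 72 h, with a median log2 change of -3.93, and neutrophil maturation markers in 7 of 8, with a median of -7.82. Of all genes tested, 29.4% were lower at 72 h. Csf1r was at 6.12 CPM or less in every library of the time course, Klf4 at 0.216 CPM or less, and Cd163 at 0.112 CPM or less. Adgre1, which encodes F4/80, had 327 and 333 CPM in the untreated libraries and 325 and 269 CPM in those of 72 h. B-cell markers summed to at most 2.08 CPM in any library of the time course. In mAML the 13 markers summed to 20052 CPM, against 3299 CPM in LSC, 10 of 11 neutrophil maturation markers were at least 2-fold higher than in LSC (median 3.40), all 12 T- and NK-cell markers reached 1 CPM (sum 178 CPM), and erythroid markers summed to 1048 CPM against 110 CPM in LSC. The part of these markers in the results below was not tested. In such bulk samples, fewer cells of a type and less RNA per cell cannot be told apart.

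The lysosomal genes as a whole took up more of the RNA in mAML than in the other single libraries, and more at 24 to 72 h of A-485 than at 0 h. Their summed level was 5274 TPM for GMP, 6118 for LSC and 11512 for mAML. In the time course it was 7905 and 7709 TPM at 0 h, 7103 and 7926 at 8 h, 10229 and 10725 at 24 h, 11407 and 11422 at 48 h, and 11275 and 11107 at 72 h. All 6 libraries from 24 h on lay above the 4 earlier ones. Each group sum was higher in mAML than in LSC, but unevenly, with the glycosidases at 957 TPM in LSC and 1093 TPM in mAML. Psap alone went from 158.38 TPM in LSC to 2273.26 TPM in mAML, and Ctss from 9.63 to 873.92 TPM. The V-ATPase genes summed to 559 and 552 TPM at 0 h and to 1246 and 1251 TPM at 72 h, while the glycosidases went from 1347 and 1393 to 1865 and 1582 TPM. As shares of all counts, with no scaling for length, the members held 1.13% and 1.12% at 0 h, 1.02% and 1.09% at 8 h, and 1.36% and 1.39% at 72 h. The median gene rose on these scales too. From 0 to 72 h its log2 change was 0.62 on log2(TPM + 1) and 0.35 in counts scaled by library size alone. The medians of the members tested were 0.71 and 0.43, so these rises were not particular to the members. At 0 h the highest levels per length were those of Cd63, at 1775 and 1544 TPM, Ctsd, at 895 and 788 TPM, and Laptm5, at 549 and 617 TPM. The lowest were those of Ctss, at 1.90 and 3.12 TPM, and Ctsh, at 0.31 and 0.69 TPM.

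**Figure D1:**
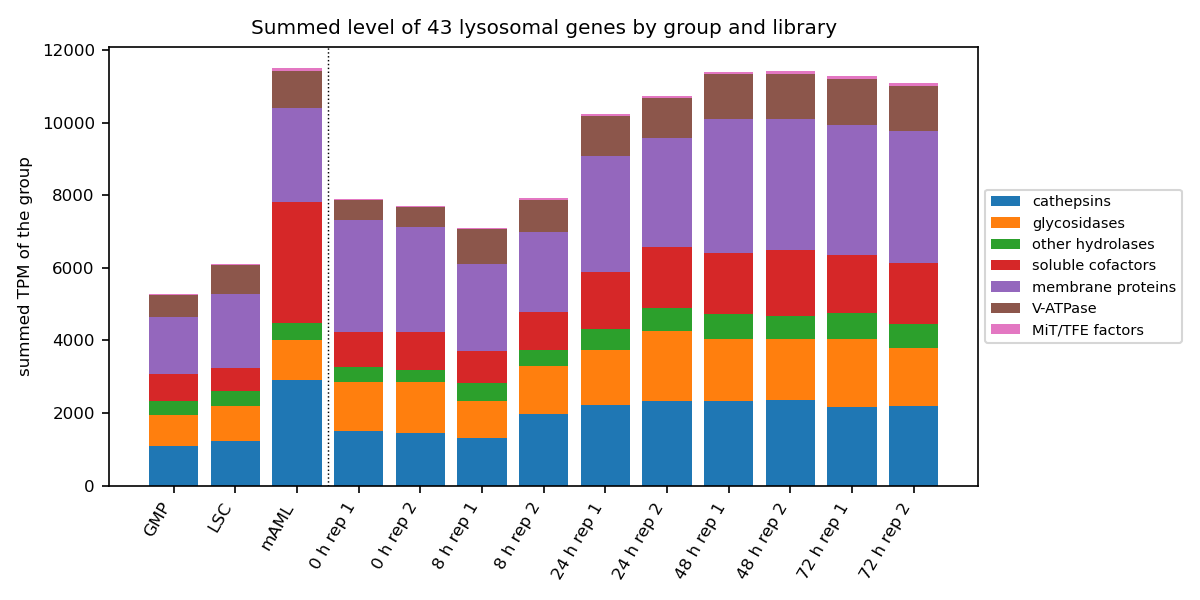
Summed TPM of the 43 genes, stacked by group, in each of the 13 libraries; the dotted line divides the 3 single libraries from the time course. The bars reach 11512 TPM in mAML and 10229 to 11422 TPM from 24 h of A-485 on, and stay at 7926 TPM or less in the others.

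Under A-485 the lysosomal genes did not move as a block: some fell at 8 h and stayed low, some fell at 8 h and came back, and others rose and stayed high. Of the 42 members tested, 8 were higher and 15 lower at 8 h, with a median log2 change of -0.25; of all 11119 genes tested, 17.9% were higher and 21.0% lower, with a median of 0.01. At 24 h 16 were higher and 10 lower (median 0.15; 23.2% and 27.1% of all genes), at 48 h 16 and 11 (median 0.21; 25.2% and 30.5%), and at 72 h 13 and 11 (median 0.07; 25.9% and 29.4%). The 2 libraries of a time lay wholly above both 0 h libraries in 14, 19, 22 and 20 members at 8, 24, 48 and 72 h (36.7%, 36.6%, 39.7% and 39.1% of all genes), and wholly below them in 20, 15, 17 and 19 (36.4%, 40.2%, 43.5% and 41.8%). Calls are Benjamini-Hochberg adjusted p under 0.05 in edgeR's quasi-likelihood test over all genes. A joint test of all treated times called 34 of 42 members, against 59.8% of all genes. It did not call Ctsb, Ctsd, Ctsl, Gaa, Lamp1, Lamp2, Scarb2 and Atp6v0d1. Ctsb, Lamp1 and Lamp2 were called by separate tests alone, and Tcirg1 and Tfeb by the joint test alone. By the separate tests 35 were called at 1 or more times: 15 only higher, 17 only lower, and Ctsa, Cd68 and Laptm5 lower at 8 h and higher later. The 7 members higher at all 4 times were Ctss, Lipa, Mcoln1, Atp6v1a, Atp6v1b2, Atp6ap1 and Tfe3, and the 6 lower at all 4 were Ctsz, Gla, Naglu, Arsb, Grn and Cd63.

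The balance of rises and falls depended on scaling. Scaled by library size alone, 14 members were higher and 11 lower at 8 h, 20 and 5 at 24 h, 22 and 7 at 48 h, and 22 and 8 at 72 h. With limma on log2(TPM + 1) the counts were 17 and 11 at 8 h, 23 and 4 at 24 h, 24 and 4 at 48 h, and 25 and 4 at 72 h. Of all 11119 genes, 4078 were higher and 1520 lower at 8 h under library size alone, and 4616 and 2228 at 72 h. For limma on log2(TPM + 1), 4844 of 11150 were higher and 1336 lower at 8 h, and 6081 and 1627 at 72 h. The shift towards rises was thus seen over all genes too. Over all genes the median shifted under these settings by 0.31 and 0.40 at 8 h and by 0.37 and 0.64 at 72 h, so the changes below are relative to the median gene. Without the 3 Wnt2-high libraries, the median log2 change of the members was -0.28, 0.00, 0.21 and 0.10 at 8, 24, 48 and 72 h. Over all genes it was 0.01, -0.04, -0.05 and -0.04.

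**Figure D2:**
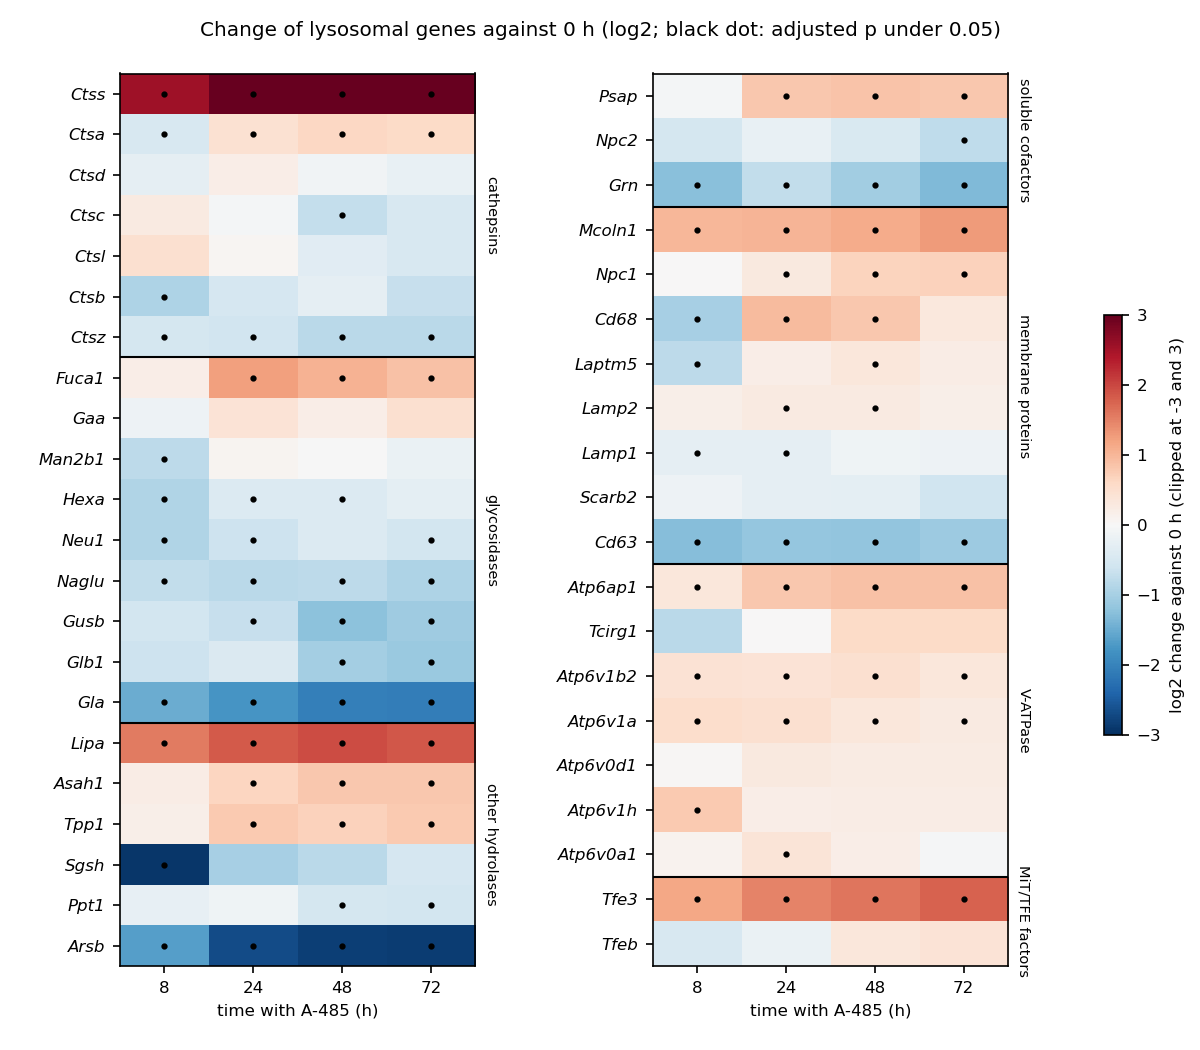
Log2 change of the 42 tested members against 0 h (colour, clipped at -3 and 3) at 8, 24, 48 and 72 h of A-485, by group, with a black dot where adjusted p is under 0.05. Rises fill the rows of Ctss, Lipa, Tfe3 and Mcoln1, falls those of Arsb, Gla, Cd63 and Grn, and Ctsa and Cd68 turn from blue at 8 h to red at 24 h.

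Among the cathepsins, 1 of the 7 tested was higher and 3 were lower at 8 h, and 2 were higher and 1 lower at 72 h, with medians of -0.26 and -0.48. Of all genes tested, 17.9% were higher and 21.0% lower at 8 h, and 25.9% and 29.4% at 72 h. Ctss encodes a cysteine protease that works at near-neutral pH and trims the class II invariant chain, and it changed more than any other member. It was at 1.85 and 3.06 CPM at 0 h, 20.8 and 7.95 at 8 h, 109 and 65.9 at 24 h, 143 and 227 at 48 h and 82.7 and 199 at 72 h. No treated library overlapped with 0 h, and the log2 changes were 2.55 ± 0.71, 5.16 ± 0.68, 6.24 ± 0.69 and 5.85 ± 0.69 at 8, 24, 48 and 72 h (adjusted p = 0.021, 0.000494, 0.000136 and 0.000185). The 8 h call was lost without either 0 h library or without 8 h replicate 1, with log2 changes of 2.26 (adjusted p = 0.116), 2.98 (adjusted p = 0.0696) and 1.72 (adjusted p = 0.119). Without the Wnt2-high libraries the Ctss changes were 3.10, 5.48, 6.24 and 6.35.

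Ctsa encodes a carboxypeptidase that also protects neuraminidase and beta-galactosidase in the lumen. It stood at 249.6 and 264 CPM at 0 h, 168 and 198 at 8 h, 312 and 387 at 24 h, 394 and 394 at 48 h and 372 and 396 at 72 h. The 8 h libraries lay below and the later 6 above those of 0 h. Its log2 changes were -0.49 ± 0.13, 0.45 ± 0.13, 0.62 ± 0.13 and 0.58 ± 0.13 at 8, 24, 48 and 72 h (adjusted p = 0.0159, 0.0178, 0.00338 and 0.00465). Ctsa lost its 8 h call without 0 h replicate 1, 0 h replicate 2 or 8 h replicate 1 (-0.49 to -0.36) and its 24 h call without 0 h replicate 1 or 24 h replicate 2 (0.28 to 0.44); library size alone and limma on log2(TPM + 1) also ended the 8 h call, with values as near 0 as -0.04. Ctsz, a carboxypeptidase abundant in myeloid cells, was at 272 and 337 CPM at 0 h, 196 and 224 at 8 h, 192 and 218 at 24 h, 164 and 186 at 48 h and 174 and 174 at 72 h. Every treated library lay below both 0 h libraries, and the changes were -0.53 ± 0.13, -0.57 ± 0.13, -0.80 ± 0.13 and -0.81 ± 0.13 at 8, 24, 48 and 72 h (adjusted p = 0.0134, 0.00789, 0.00119 and 0.00116). In limma on log2(TPM + 1) no Ctsz call was left, with -0.11 and -0.09 at 48 and 72 h. Ctsz lost its 8 h call without 0 h replicate 2 or 8 h replicate 1 (-0.42 to -0.33) and its 24 h call without 0 h replicate 2 (-0.37).

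The other cathepsins changed less or passed the test at 1 time only. Ctsb, a widely expressed cysteine protease, fell at 8 h (-0.93) and was not called later; without the Wnt2-high libraries its values were -0.27 at 48 h and -0.44 at 72 h. Ctsc, which activates the granule serine proteases, was lower at 48 h only (-0.72). Ctsb lost its 8 h call without 0 h replicate 1, 0 h replicate 2 or 8 h replicate 2 (-0.90 to -0.65), and Ctsc lost its 48 h call without 0 h replicate 1, 0 h replicate 2, 48 h replicate 1 or 48 h replicate 2 (-0.81 to -0.48). Ctsd, the main aspartic protease, was at 1352 and 1192 CPM at 0 h and 1128 and 1063 CPM at 72 h, and Ctsl had log2 changes of 0.47 at 8 h and -0.48 at 72 h; neither passed the test at any time. Without the Wnt2-high libraries the 8 h value of Ctsd was -0.74, from 1 library at 8 h. The 8 h library left out was 0.85 above its partner for Ctsd on the log2 scale. Ctsh was not tested, since its counts in the 10 time-course libraries summed to 12, although it was at 85.21 TPM in the LSC library.

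Glycosidases, the largest group, had the most falls by number, while 2 of the 3 soluble cofactors were also lower at 72 h. Of 9 tested, 0 were higher and 5 lower at 8 h (0 higher at an unadjusted p under 0.05 in edgeR and 0 in DESeq2), and 1 was higher and 5 were lower at each of 24, 48 and 72 h, with medians of -0.74, -0.43, -0.42 and -0.55. Of all genes tested, 17.9%, 23.2%, 25.2% and 25.9% were higher at 8, 24, 48 and 72 h, and 21.0%, 27.1%, 30.5% and 29.4% lower. In limma on log2(TPM + 1) the 72 h median of the glycosidases was 0.16, with 4 higher and 1 lower. Over all genes that median was 0.62, with 6081 of 11150 higher and 1627 lower. Gla encodes alpha-galactosidase A, which removes galactose from globotriaosylceramide. It was at 118 and 125 CPM at 0 h, 48.5 and 38.4 at 8 h, 34.7 and 36.2 at 24 h, 30.1 and 28 at 48 h and 27.2 and 30.1 at 72 h. The highest treated library was below the lowest at 0 h, with changes of -1.48 ± 0.14, -1.78 ± 0.14, -2.06 ± 0.15 and -2.08 ± 0.15 at 8, 24, 48 and 72 h (adjusted p = 0.00017, 5.31e-05, 1.7e-05 and 1.67e-05), and these calls held under all 21 alternatives. Naglu, an enzyme of heparan sulfate breakdown, was at 220.4 and 227 CPM at 0 h, 148 and 119 at 8 h, 129 and 126 at 24 h, 127 and 133 at 48 h and 110.2 and 127 at 72 h. Its treated libraries did not overlap with 0 h either, and it changed by -0.74 ± 0.12, -0.81 ± 0.12, -0.78 ± 0.12 and -0.92 ± 0.12 at 8, 24, 48 and 72 h (adjusted p = 0.00219, 0.000992, 0.000902 and 0.000391). In limma on log2(TPM + 1) Naglu lost its 48 and 72 h calls, at -0.10 and -0.21.

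Fuca1, which removes fucose from glycoproteins and is known as a p53 target, was the glycosidase that rose. It was at 110.1 and 115 CPM at 0 h, 127 and 133 at 8 h, 228 and 301 at 24 h, 239 and 228 at 48 h and 224 and 192 at 72 h. All 8 treated libraries lay above 0 h, although the test was passed from 24 h on, with changes of 0.20 ± 0.14, 1.23 ± 0.14, 1.05 ± 0.14 and 0.88 ± 0.14 at 8, 24, 48 and 72 h (adjusted p = 0.277, 0.000265, 0.000371 and 0.000967). Hexa, the beta-hexosaminidase subunit needed for GM2 ganglioside, fell at 8 h (-0.90), 24 h (-0.41) and 48 h (-0.42); in limma on log2(TPM + 1) the last 2 changed sign, to 0.11 and 0.26. Neu1, the lysosomal sialidase, was lower at 8, 24 and 72 h, and its 72 h change of -0.55 turned to 0.16 in limma on log2(TPM + 1). Gusb was lower at 24, 48 and 72 h (-0.68, -1.23 and -1.07). Glb1, beta-galactosidase, was lower at 48 and 72 h (-1.02 and -1.11), and Gusb and Glb1 lost those of 48 and 72 h in limma on log2(TPM + 1). Hexa lost its 24 h call without 0 h replicate 1, 0 h replicate 2 or 24 h replicate 1 (-0.46 to -0.27) and its 48 h call without 0 h replicate 1, 0 h replicate 2, 48 h replicate 1 or 48 h replicate 2 (-0.45 to -0.27). Neu1 lost its 24 h call without 0 h replicate 1 or 24 h replicate 2 (-0.52) and its 72 h call without 0 h replicate 1, 0 h replicate 2 or 72 h replicate 1 (-0.57 to -0.40). Gusb lost its 24 h call without 0 h replicate 1, 0 h replicate 2, 24 h replicate 1, 48 h replicate 1, 48 h replicate 2, 72 h replicate 1 or 72 h replicate 2 (-0.75 to -0.40). Glb1 lost its 48 h call without 0 h replicate 1 or 48 h replicate 2 (-0.94 to -0.90) and its 72 h call without 72 h replicate 2 (-0.92).

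Man2b1, lysosomal alpha-mannosidase, fell at 8 h only. It was at 1192 and 1106 CPM at 0 h, 648 and 681 at 8 h, 1093 and 1354 at 24 h, 1148 and 1132 at 48 h and 1039 and 966 at 72 h. The 8 h libraries lay below all others, with a change of -0.79, and the later changes were 0.09, -0.01 and -0.20. Gaa, which degrades glycogen, passed the test at no time. Without the Wnt2-high libraries its 8 h value was -0.49, from 1 library at 8 h, and those of Gusb and Glb1 were -0.89 and -1.09.

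The other hydrolases held a large lasting rise, that of the lipase gene Lipa, and a large lasting fall, that of the sulfatase gene Arsb. At 72 h 3 of 6 were higher and 2 lower, with a median of 0.14, against 25.9% and 29.4% of all genes. Lipa, the acid lipase that frees cholesterol and fatty acids from lipoproteins, was at 31.9 and 27.6 CPM at 0 h, 85.5 and 90.2 at 8 h, 109.5 and 102 at 24 h, 109.7 and 121 at 48 h and 104 and 113 at 72 h. No treated library overlapped with 0 h, and most of the rise was present at 8 h, with changes of 1.56 ± 0.12, 1.83 ± 0.12, 1.96 ± 0.12 and 1.87 ± 0.12 at 8, 24, 48 and 72 h (adjusted p = 6.23e-05, 2.38e-05, 1.02e-05 and 1.31e-05). Between 8 and 72 h Lipa moved by 0.30 ± 0.12 (adjusted p = 0.0746). Arsb, the sulfatase of dermatan and chondroitin sulfate, was at 327 and 186 CPM at 0 h, 105 and 57.2 at 8 h, 43.6 and 36.2 at 24 h, 36.4 and 35.5 at 48 h and 40.5 and 31.3 at 72 h. The 0 h libraries differed from each other by -0.82 (replicate 2 minus replicate 1) on the log2 scale, the widest gap of the 42 members, and every treated library lay below them. Its changes were -1.66 ± 0.32, -2.68 ± 0.34, -2.83 ± 0.34 and -2.84 ± 0.34 at 8, 24, 48 and 72 h (adjusted p = 0.00459, 0.000393, 0.000207 and 0.00021).

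Asah1, acid ceramidase, was at 182 and 189.7 CPM at 0 h, 246 and 190.4 at 8 h, 304 and 276 at 24 h, 349 and 308 at 48 h and 327 and 327 at 72 h. It lay above 0 h in each treated library and passed the test from 24 h on, with changes of 0.23 ± 0.13, 0.64 ± 0.13, 0.82 ± 0.13 and 0.82 ± 0.13 at 8, 24, 48 and 72 h (adjusted p = 0.192, 0.00422, 0.000912 and 0.00101). Tpp1, a tripeptidyl peptidase, likewise rose from 24 h on (0.78, 0.69 and 0.79). Ppt1, which removes palmitate from proteins, was lower at 48 and 72 h (-0.52 and -0.56), and both values turned to 0.17 in limma on log2(TPM + 1). Ppt1 lost its 48 h call without 0 h replicate 1, 48 h replicate 1 or 48 h replicate 2 (-0.59 to -0.23) and its 72 h call without 0 h replicate 1 or 72 h replicate 2 (-0.54 to -0.29), and Tpp1 lost its 48 h call without 48 h replicate 2 (0.60). Sgsh, the sulfamidase of heparan sulfate breakdown, was at 36.5 and 43.3 CPM at 0 h, 4.72 and 5.82 at 8 h, 9.72 and 30.3 at 24 h, 19.2 and 26 at 48 h and 27.7 and 28.1 at 72 h. Both 8 h libraries were far below the others, the 24 h libraries differed widely from each other, and those of 72 h lay between 8 h and 0 h. The 8 h change was -2.92, and the later ones, -1.0, -0.82 and -0.51, did not pass the test.

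The 3 soluble cofactors went separate ways. Psap encodes the precursor of the saposins, which present sphingolipids to their hydrolases. It was at 870.4 and 887 CPM at 0 h, 730.1 and 952 at 8 h, 1404 and 1647 at 24 h, 1520 and 1665 at 48 h and 1495 and 1594 at 72 h. The 8 h libraries lay on both sides of those at 0 h, and all 6 later libraries lay above, with changes of -0.06 ± 0.14, 0.80 ± 0.14, 0.86 ± 0.14 and 0.81 ± 0.14 at 8, 24, 48 and 72 h (adjusted p = 0.749, 0.00201, 0.00102 and 0.0014). Under TPM the 8 h change was 0.37. Grn, the precursor of the granulins, was at 690.5 and 737 CPM at 0 h, 293 and 306 at 8 h, 413 and 446 at 24 h, 337 and 353 at 48 h and 266 and 305 at 72 h. All treated libraries lay below 0 h, lowest at 8 and 72 h, with changes of -1.25 ± 0.10, -0.73 ± 0.10, -1.05 ± 0.10 and -1.32 ± 0.10 at 8, 24, 48 and 72 h (adjusted p = 8.19e-05, 0.0006, 6.61e-05 and 2.47e-05). The 24 h call of Grn was lost in limma on log2(TPM + 1), at -0.21 (adjusted p = 0.0661). Npc2, which hands cholesterol to Npc1, was at 541 and 632 CPM at 0 h, 442 and 377 at 8 h, 540 and 464 at 24 h, 375 and 487 at 48 h and 294 and 395 at 72 h. It was lower at 72 h only, with changes of -0.52 ± 0.18, -0.22 ± 0.18, -0.45 ± 0.18 and -0.77 ± 0.18 at 8, 24, 48 and 72 h (adjusted p = 0.0521, 0.332, 0.0662 and 0.00728), and Npc2 lost its 72 h call without 0 h replicate 2 or 72 h replicate 1 (-0.61 to -0.57).

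Of the 8 membrane protein genes, 1 was higher and 4 were lower at 8 h, 5 and 1 at 48 h, and 2 and 1 at 72 h. The shares of all genes were 17.9% and 21.0% at 8 h, 25.2% and 30.5% at 48 h, and 25.9% and 29.4% at 72 h. Cd63 encodes a tetraspanin of late endosomes that is also carried on azurophil granules. It was at 1005 and 875 CPM at 0 h, 429.5 and 346 at 8 h, 444 and 391 at 24 h, 407 and 420.5 at 48 h and 414 and 476 at 72 h. The treated libraries lay between 346 and 476 CPM, all under the 0 h libraries, with changes of -1.28 ± 0.14, -1.17 ± 0.14, -1.18 ± 0.14 and -1.08 ± 0.14 at 8, 24, 48 and 72 h (adjusted p = 0.000288, 0.000291, 0.000173 and 0.000278). Cd68, the macrosialin of macrophage lysosomes, was at 30.6 and 32.9 CPM at 0 h, 18.5 and 13.3 at 8 h, 67.1 and 55 at 24 h, 49 and 61.7 at 48 h and 39.4 and 39.8 at 72 h. It was below 0 h at 8 h and above it at all later times, with changes of -1.0 ± 0.20, 0.94 ± 0.19, 0.80 ± 0.19 and 0.32 ± 0.19 at 8, 24, 48 and 72 h (adjusted p = 0.00518, 0.00403, 0.00736 and 0.187). Laptm5, which is restricted to blood cells, was at 1047 and 1180 CPM at 0 h, 690 and 605 at 8 h, 1266 and 1311 at 24 h, 1420 and 1427 at 48 h and 1265 and 1321 at 72 h. Its 8 h libraries were likewise lowest, with changes of -0.78 ± 0.10, 0.21 ± 0.10, 0.35 ± 0.10 and 0.22 ± 0.10 at 8, 24, 48 and 72 h (adjusted p = 0.000751, 0.118, 0.0174 and 0.103). Laptm5 lost its 48 h call without 0 h replicate 1, 48 h replicate 1 or 48 h replicate 2 (0.33 to 0.36), and Cd68 lost its 48 h call without 48 h replicate 2 (0.63).

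The cation channel gene Mcoln1 and the cholesterol transporter gene Npc1 are given in full, as are Man2b1, Sgsh, Atp6v1b2, Atp6v0a1 and Tcirg1, because of values seen beforehand. Mcoln1 was at 23.6 and 21.3 CPM at 0 h, 44.9 and 45 at 8 h, 48.1 and 43 at 24 h, 52.4 and 44.7 at 48 h and 51.3 and 56.9 at 72 h. It rose by 8 h and stayed there, with changes of 1.0 ± 0.14, 1.02 ± 0.14, 1.11 ± 0.14 and 1.27 ± 0.14 at 8, 24, 48 and 72 h (adjusted p = 0.00109, 0.000664, 0.000292 and 0.000152). Npc1 was at 162 and 184 CPM at 0 h, 171 and 176 at 8 h, 226 and 197 at 24 h, 278 and 272 at 48 h and 276 and 287 at 72 h. It overlapped with 0 h at 8 h and lay above later, with changes of 0.00 ± 0.10, 0.29 ± 0.10, 0.66 ± 0.10 and 0.70 ± 0.10 at 8, 24, 48 and 72 h (adjusted p = 0.999, 0.0458, 0.000821 and 0.000637); the 24 h call held in 8 of 21 alternatives. Npc1 lost its 24 h call without 0 h replicate 1, 8 h replicate 1, 8 h replicate 2, 24 h replicate 1, 48 h replicate 1, 48 h replicate 2, 72 h replicate 1 or 72 h replicate 2 (0.19 to 0.30). Lamp1 and Lamp2, the main glycoproteins of the lysosomal membrane, changed by -0.27 to 0.28 at any time; Lamp1 was called lower at 8 and 24 h and Lamp2 higher at 24 and 48 h. Lamp1 lost its 8 h call without 0 h replicate 1, 0 h replicate 2, 8 h replicate 1, 8 h replicate 2, 48 h replicate 1 or 48 h replicate 2 (-0.28 to -0.21) and its 24 h call without 0 h replicate 1, 0 h replicate 2, 24 h replicate 1, 24 h replicate 2, 48 h replicate 1 or 48 h replicate 2 (-0.31 to -0.20), and Lamp2 lost its 24 h call without 0 h replicate 2 or 24 h replicate 1 (0.22 to 0.27) and its 48 h call without 0 h replicate 2, 48 h replicate 1 or 48 h replicate 2 (0.26 to 0.29). Lamp1 turned from -0.27 to 0.17 at 8 h and from -0.15 to 0.56 at 72 h in limma on log2(TPM + 1). Scarb2, the carrier of glucocerebrosidase, passed the test at no time.

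V-ATPase genes were higher or not called at every time. Of 7 tested, 4 were higher at 8 and 24 h and 3 at 48 and 72 h, and 0 were lower, with medians of 0.35, 0.38, 0.35 and 0.26. Of all genes tested, 17.9%, 23.2%, 25.2% and 25.9% were higher at 8, 24, 48 and 72 h, and 21.0%, 27.1%, 30.5% and 29.4% lower. Under library size alone 7 of 7 were higher at 48 and 72 h, with medians of 0.70 and 0.63, as in limma on log2(TPM + 1), with 1.01 and 0.97. All genes shifted under these settings too. With library size alone 4415 and 4616 of 11119 were higher at 48 and 72 h (medians 0.31 and 0.35). With limma on log2(TPM + 1) 5787 and 6081 of 11150 were higher (medians 0.57 and 0.62). Without 48 h replicate 1, 48 h replicate 2 or 72 h replicate 2, 1 of 7 was higher at 72 h. At an unadjusted p under 0.05 in edgeR 0 were lower at any of these times. DESeq2 called 0 lower from 24 h on and 1, Tcirg1, at 8 h. Atp6ap1, an accessory subunit that helps to assemble the pump, was at 243 and 214 CPM at 0 h, 307 and 274 at 8 h, 414 and 389 at 24 h, 412 and 422 at 48 h and 411 and 434 at 72 h. The 8 h libraries lay between those of 0 h and the later ones, and no treated library overlapped with 0 h. Its changes were 0.35 ± 0.10, 0.81 ± 0.10, 0.87 ± 0.10 and 0.89 ± 0.10 at 8, 24, 48 and 72 h (adjusted p = 0.0264, 0.000394, 0.000185 and 0.000172). Atp6ap1 lost its 8 h call without 0 h replicate 2 or 8 h replicate 1 (0.28 to 0.30). Atp6v1a, the catalytic subunit, was at 270.4 and 246 CPM at 0 h, 375 and 363 at 8 h, 354 and 361 at 24 h, 329.8 and 326 at 48 h and 319 and 299 at 72 h. It was highest at 8 h, with changes of 0.52 ± 0.09, 0.47 ± 0.09, 0.35 ± 0.09 and 0.26 ± 0.09 at 8, 24, 48 and 72 h (adjusted p = 0.00253, 0.00281, 0.0102 and 0.0343). Atp6v1a lost its 48 h call without 48 h replicate 1 (0.34) and its 72 h call without 0 h replicate 2, 48 h replicate 1, 48 h replicate 2, 72 h replicate 1 or 72 h replicate 2 (0.22 to 0.31). Its 72 h call held in 12 of 21 alternatives and was also lost without the Wnt2-high libraries, at 0.22.

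Atp6v1h, a regulatory subunit, was at 72.9 and 72 CPM at 0 h, 118 and 131 at 8 h, 72.5 and 94.1 at 24 h, 82.2 and 86.6 at 48 h and 90.3 and 80.3 at 72 h. The 8 h libraries were highest, those of 24 h overlapped with 0 h and those of 48 and 72 h lay above 0 h, with changes of 0.78 ± 0.14, 0.20 ± 0.14, 0.22 ± 0.14 and 0.23 ± 0.14 at 8, 24, 48 and 72 h (adjusted p = 0.00313, 0.263, 0.215 and 0.186). Atp6v1b2, the B subunit of most cells, was at 178 and 206 CPM at 0 h, 281 and 241 at 8 h, 262 and 253 at 24 h, 276 and 265 at 48 h and 231 and 250.5 at 72 h. It was higher at all 4 times, with changes of 0.44 ± 0.11, 0.42 ± 0.11, 0.49 ± 0.11 and 0.33 ± 0.11 at 8, 24, 48 and 72 h (adjusted p = 0.0148, 0.0138, 0.00601 and 0.0363). Atp6v1b2 lost its 8 h call without 0 h replicate 1 or 8 h replicate 1 (0.35 to 0.38) and its 24 h call without 0 h replicate 1 or 24 h replicate 1 (0.36 to 0.40) and its 72 h call without 0 h replicate 1, 48 h replicate 1, 48 h replicate 2, 72 h replicate 1 or 72 h replicate 2 (0.26 to 0.39). Atp6v0a1, a membrane subunit, was at 93 and 94.7 CPM at 0 h, 102 and 98.6 at 8 h, 126 and 119 at 24 h, 104 and 114 at 48 h and 85.8 and 96.9 at 72 h. It passed the test at 24 h alone, at 0.38. Atp6v0a1 lost its 24 h call without 0 h replicate 1, 0 h replicate 2 or 24 h replicate 1 (0.34 to 0.43). Tcirg1, the a3 subunit of osteoclasts and immune cells, did not pass the test against 0 h at any single time, but the joint test called it. It was at 102 and 103 CPM at 0 h, 72 and 46.3 at 8 h, 125 and 82.4 at 24 h, 140.5 and 166 at 48 h and 99.3 and 208 at 72 h, with the Wnt2-high library the lower of each pair. Without those 3 libraries its values were -0.51 at 8 h, 0.58 at 48 h and 1.02 at 72 h, with 1 library left at 8 h and at 72 h. Atp6v0d1 was not called at any time.

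The transcription factor genes were at 9.90 to 12.32 TPM at 0 h, and Tfe3 rose while Tfeb did not pass the test at any single time. The joint test of all treated times did call Tfeb. Tfe3 was at 26.6 and 27.4 CPM at 0 h, 51.7 and 69.3 at 8 h, 74.4 and 77.6 at 24 h, 87.8 and 76.6 at 48 h and 87.9 and 95 at 72 h. All treated libraries lay above 0 h, with changes of 1.16 ± 0.16, 1.49 ± 0.16, 1.61 ± 0.16 and 1.76 ± 0.16 at 8, 24, 48 and 72 h (adjusted p = 0.000848, 0.000174, 7.39e-05 and 4.77e-05), which held under all 21 alternatives. Tfeb was at 21.5 and 22.8 CPM at 0 h, 18.9 and 13.2 at 8 h, 19 and 19.8 at 24 h, 24.8 and 31.1 at 48 h and 28.4 and 30.3 at 72 h. It was below 0 h at 8 and 24 h and above it at 48 and 72 h in every library, with changes of -0.47 ± 0.21, -0.19 ± 0.20, 0.33 ± 0.20 and 0.40 ± 0.20 at 8, 24, 48 and 72 h (adjusted p = 0.103, 0.459, 0.195 and 0.119). RNA levels do not show where these proteins were in the cell.

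**Figure D3:**
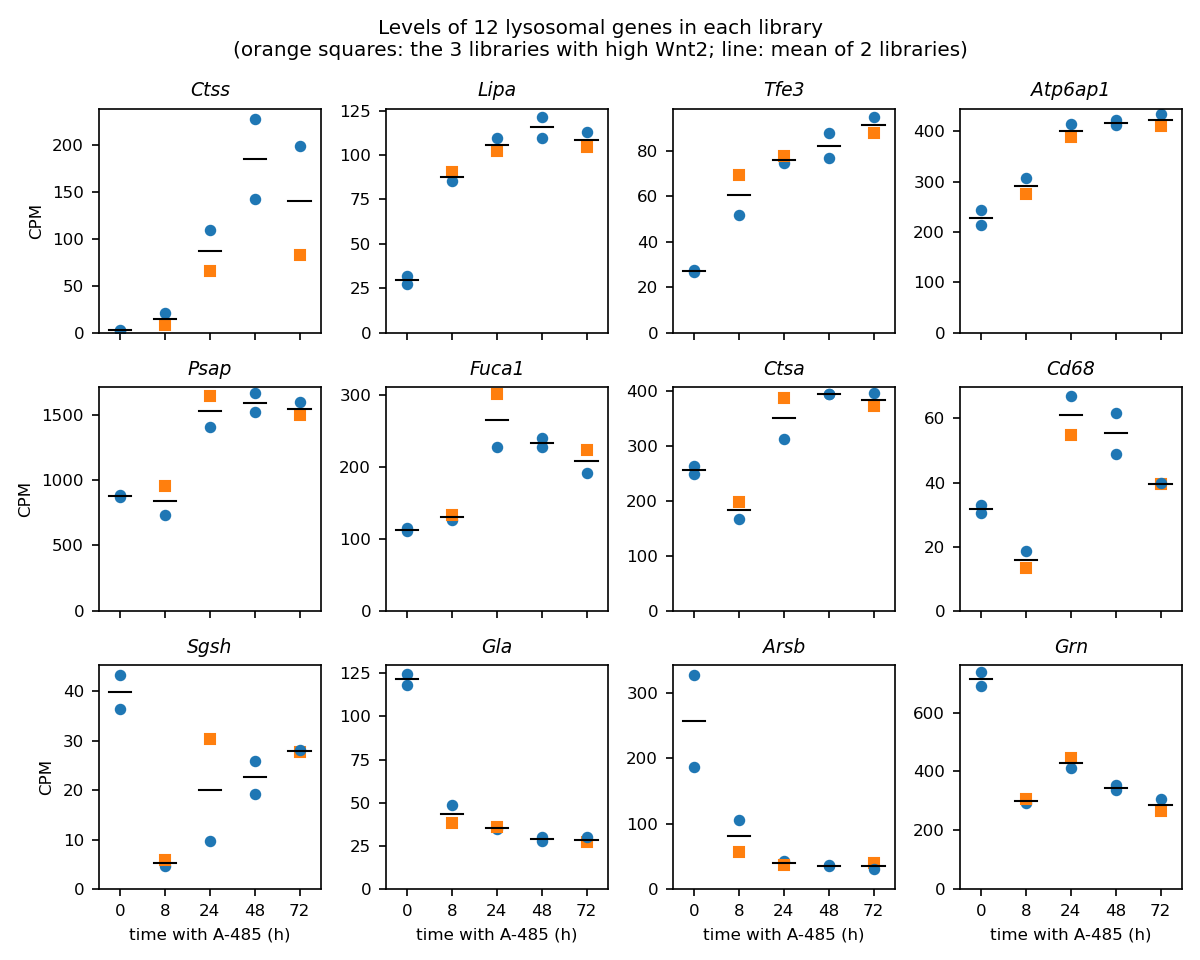
CPM of 12 members in each of the 10 time-course libraries against time with A-485, on axes from 0, with lines at the mean of 2 libraries and orange squares for the 3 Wnt2-high libraries. Ctss, Lipa, Tfe3 and Atp6ap1 climb, Psap and Fuca1 rise from 24 h on, Ctsa, Cd68 and Sgsh dip at 8 h, and Gla, Arsb and Grn fall and stay low.

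The change between 8 and 72 h was tested on its own, to ask which members went on moving after the first treated time. Of 42, 16 were higher and 4 lower at 72 h than at 8 h, against 15.1% and 17.2% of all genes. The 72 h libraries lay wholly above those of 8 h in 22 members and wholly below in 10 (32.2% and 33.7% of all genes), and the median was 0.23 against -0.02. Without the Wnt2-high libraries the median of the members was 0.27, against -0.02 over all genes. Ctss rose by a further 3.29 ± 0.56 (adjusted p = 0.00279), and Sgsh recovered by 2.40 ± 0.47 (adjusted p = 0.00537). Cd68 was higher by 1.32 ± 0.20 (adjusted p = 0.00164), Ctsa by 1.07 ± 0.13 (adjusted p = 0.000518), Laptm5 by 1.0 ± 0.10 (adjusted p = 0.000269) and Psap by 0.88 ± 0.14 (adjusted p = 0.00214). Of these 6, all held the call under the 21 alternatives. Tfeb was higher at 72 h than at 8 h by 0.87 ± 0.20 (adjusted p = 0.0119). Tfeb lost its 72 h against 8 h call without 8 h replicate 2 or 72 h replicate 2 (0.64 to 0.83), and also without the Wnt2-high libraries, at 0.68. The 4 members lower at 72 h than at 8 h were Ctsc, Gla, Arsb and Atp6v1h. Arsb moved by -1.17 ± 0.33 (adjusted p = 0.0255) and Gla by -0.60 ± 0.14 (adjusted p = 0.0136). Gla lost its 72 h against 8 h call without 8 h replicate 1 or 72 h replicate 1 (-0.53 to -0.43), Arsb lost its 72 h against 8 h call without 8 h replicate 1, 72 h replicate 1 or 72 h replicate 2 (-1.37 to -0.69), Ctsc lost its 72 h against 8 h call without 0 h replicate 1, 0 h replicate 2, 8 h replicate 1, 8 h replicate 2, 48 h replicate 1, 48 h replicate 2 or 72 h replicate 2 (-0.84 to -0.42), and Atp6v1h lost its 72 h against 8 h call without 8 h replicate 2 or 72 h replicate 2 (-0.47). Among the 16 higher ones, Tpp1 lost its 72 h against 8 h call without 8 h replicate 1, 8 h replicate 2, 72 h replicate 1 or 72 h replicate 2 (0.52 to 0.69), Tcirg1 lost its 72 h against 8 h call without 8 h replicate 2 or 72 h replicate 2 (0.75 to 1.09) and Tfe3 lost its 72 h against 8 h call without 8 h replicate 1 or 72 h replicate 2 (0.39 to 0.54).

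Lysosomal genes outside the 43 were counted from lists by name. For comparison, 17.9% of all genes tested were higher and 21.0% lower at 8 h, and 25.9% and 29.4% at 72 h. Of 11 further V-ATPase genes tested, 6 were higher and 0 lower at 8 h (1 lower at an unadjusted p under 0.05 in edgeR), and 8 higher and 1 lower at 72 h (median 0.75). Atp6v0b, a proteolipid subunit, changed by 0.75 at 8 h and 1.16 at 72 h, and Atp6ap2, the prorenin receptor, was the one that fell, by 0.83 on the log2 scale at 72 h. Atp6v1g2, a G subunit, stood at 2.22 and 2.09 CPM in the untreated and 8.77 and 9.93 CPM in the 72 h libraries. Of 23 other hydrolases, 5 were higher and 4 lower at 8 h and 8 and 8 at 72 h, with a median of 0.00. Ctso, a cysteine cathepsin gene, rose at 72 h by 2.15, while Ctse and the GM2 activator gene Gm2a fell by 1.55 and 0.68 on the log2 scale.

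Other membrane proteins numbered 5 higher and 0 lower of 12 at 72 h (0 lower at an unadjusted p under 0.05 in edgeR), with Cln3 at 1.41 and the amino acid sensor gene Slc38a9 at 1.32. At that time 25.9% of all genes were higher and 29.4% lower. Among 10 genes that sort enzymes by mannose 6-phosphate, 5 were higher and 2 lower at 72 h. Sumf1, which activates all sulfatases, rose by 1.48 and Gga3 by 1.12, and the receptor gene M6pr and the adaptor gene Gga2 fell by 0.68 and 1.21 on the log2 scale. The second receptor gene, Igf2r, had at most 2 counts in any time-course library. Of 21 genes that regulate TFEB or sense nutrients, 9 were higher and 2 lower at 72 h; Tsc1 and Tsc2, which restrain mTORC1, rose by 1.03 and 0.72, and the MiT/TFE gene Tfec fell by 2.54 on the log2 scale. Lamtor4, a part of the Ragulator complex, fell by 0.57 on the log2 scale at 8 h and did not pass the test at 72 h (-0.36).

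The single libraries of GMP, LSC and mAML have no replicates, so their values carry no test, and brackets give the 95% exact binomial interval of the counts, which covers counting error only. A member is counted where the 2 libraries were at least 2-fold apart with at least 10 CPM in the higher one. LSC had 8 of 43 members at least 2-fold higher than GMP and 4 lower, against 10.9% and 8.13% of all genes considered. With log2 ratios of TPM + 1, 5 were higher. mAML had 16 higher and 2 lower than LSC, against 12.7% and 7.0%, and 21 higher and 3 lower than GMP, against 19.2% and 12.5%. The medians were 0.45, 0.60 and 0.99 in these comparisons, and 0.03, -0.04 and 0.01 over all genes. The mAML library also held the markers of other blood cells given above.

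Of 8 cathepsins, 5 were at least 2-fold higher in mAML than in LSC and 0 lower, with a median of 1.90. Ctss was at 30.4 CPM in GMP, 8.13 in LSC and 777 in mAML, so it was lowest in LSC, with ratios of -1.89 [-2.10, -1.72] for LSC to GMP and 6.56 [6.42, 6.74] for mAML to LSC. Ctsc was at 95.4 CPM in GMP, 26.6 in LSC and 260 in mAML, with the same order of libraries and ratios of -1.84 [-1.95, -1.74] and 3.28 [3.20, 3.38]. Ctsl, Ctsh and Ctsa were also higher in mAML than in LSC, at 2.65, 2.38 and 1.41, and Ctsd was not, at -0.25.

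After TMM scaling no glycosidase was 2-fold apart between mAML and LSC, where the 9 ratios ran from -0.97 to 0.52. The lowest, Neu1, lay close to the threshold, at 90.44 TPM in LSC and 43.96 TPM in mAML. Under library size alone and with log2 ratios of TPM + 1, the members lower in mAML than in LSC numbered 3 in place of 2. Man2b1 was at 272 CPM in GMP, 665 in LSC and 932 in mAML, a ratio of 1.29 [1.25, 1.33] for LSC to GMP. Neu1 was at 70.4 CPM in GMP, 236 in LSC and 120 in mAML, highest in LSC, with ratios of 1.74 [1.67, 1.82] to GMP and -0.97 [-1.02, -0.92] for mAML to LSC. Among the other hydrolases, Sgsh was at 11.5 CPM in GMP, 49.3 in LSC and 86.7 in mAML, rising through the 3 libraries, with 2.08 [1.92, 2.27] for LSC to GMP and 2.90 [2.74, 3.08] for mAML to GMP. Arsb was at 321 CPM in GMP, 457 in LSC and 83.3 in mAML, lowest in mAML, with a ratio to LSC of -2.45 [-2.51, -2.40]. Asah1 and Lipa were higher there, at 1.65 and 1.32.

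All 3 soluble cofactors were at least 2-fold higher in mAML than in LSC. Psap was at 648 CPM in GMP, 279 in LSC and 4185 in mAML, lowest in LSC, with ratios of -1.22 [-1.25, -1.18] and 3.91 [3.88, 3.93]. Grn was at 189 CPM in GMP, 444 in LSC and 1049 in mAML, with 1.23 [1.18, 1.28] and 1.24 [1.21, 1.26], and Npc2 had 1.15 for mAML to LSC. Of the membrane proteins, Cd68 was at 18.1 CPM in GMP, 73.9 in LSC and 284 in mAML, with 2.02 [1.89, 2.17] and 1.94 [1.89, 2.0]. Cd63 was at 220 CPM in GMP, 283 in LSC and 24 in mAML. Its mAML to LSC ratio of -3.55 [-3.65, -3.47] was the lowest of the 43. Npc1 and Scarb2 were higher in mAML than in LSC, at 1.48 and 1.27.

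The V-ATPase differed less, with 1 of 7 at least 2-fold apart between mAML and LSC and a median of 0.24. That gene was Atp6v0a1, at 36.9 CPM in GMP, 15 in LSC and 63.9 in mAML, with ratios of -1.29 [-1.45, -1.15] and 2.08 [1.96, 2.22]. Atp6v1b2 was at 238 CPM in GMP, 337 in LSC and 637 in mAML, with ratios of 0.50 [0.46, 0.55] and 0.92 [0.89, 0.95]. Both transcription factor genes were highest in mAML. Tfeb was at 12.8 CPM in GMP, 17.2 in LSC and 65.5 in mAML, with 0.42 [0.24, 0.62] and 1.92 [1.81, 2.05], and Tfe3 at 19.6 CPM in GMP, 32.5 in LSC and 104 in mAML, with 0.72 [0.58, 0.88] and 1.68 [1.59, 1.77].

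**Figure D4:**
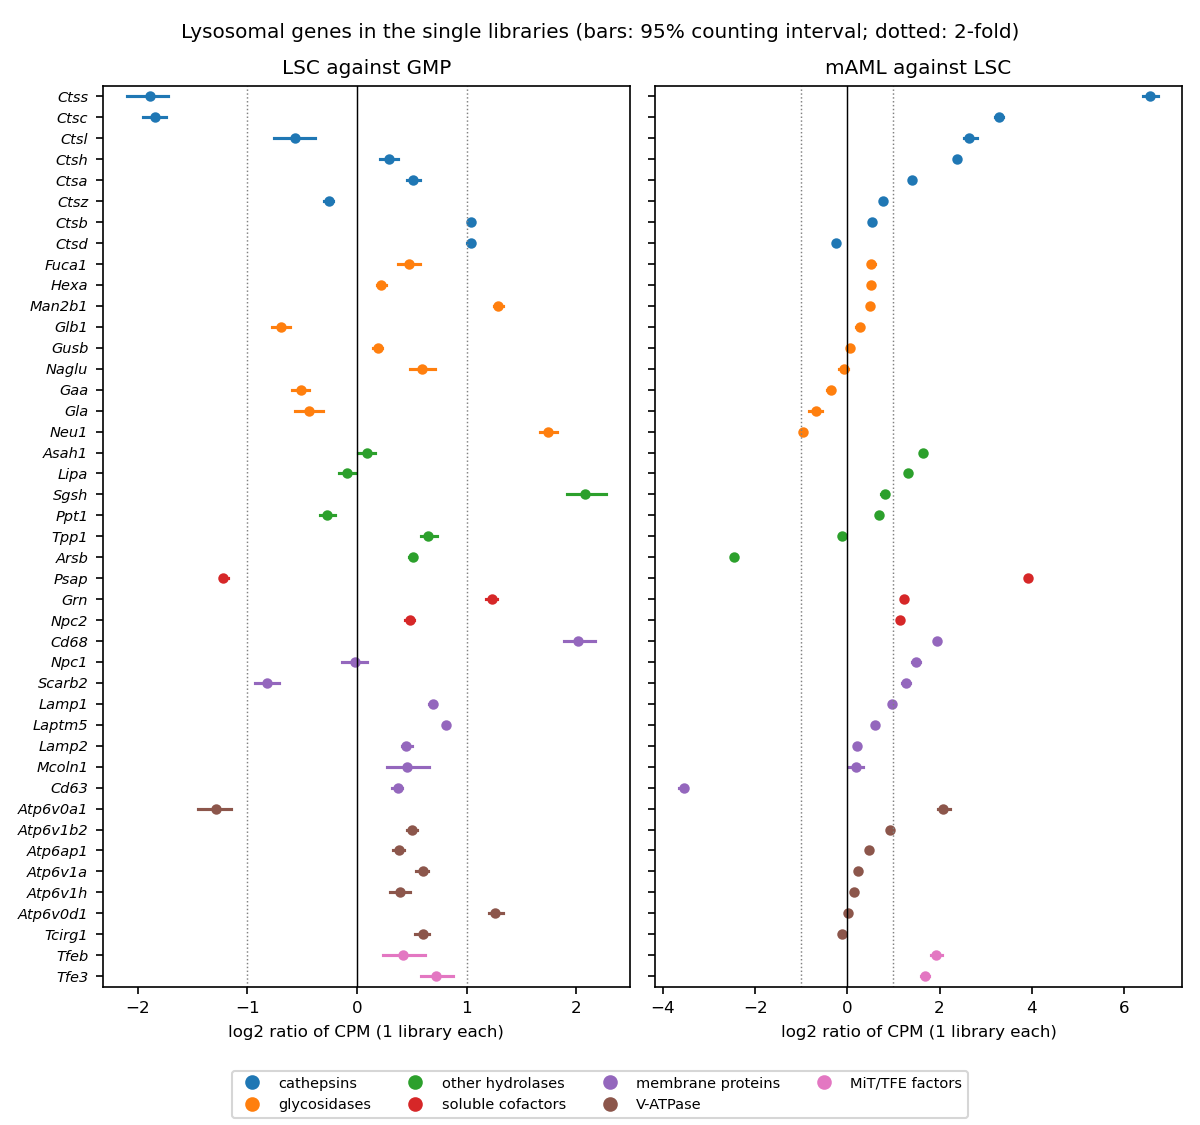
Log2 ratio of CPM between single libraries for the 43 members, coloured by group, with bars for the 95% counting interval and dotted lines at 2-fold. In the panel of mAML against LSC, Ctss lies at 6.56 and Psap at 3.91, Cd63 and Arsb lie lowest at -3.55 and -2.45, and the glycosidases stay within 2-fold.

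The values under A-485 and in mAML are set side by side, each against libraries labelled LSC; they share no library. The LSC library and the 0 h libraries differed in several members: Lipa was at 44.9 TPM in LSC and 13.2 and 11.4 TPM at 0 h, Cd63 at 546 against 1775 and 1544 TPM, and Ctsh at 85.21 against 0.31 and 0.69 TPM. Whether these came from the same cells is not stated in the labels. Of 13 members higher at 72 h, 7 were at least 2-fold higher in mAML than in LSC (Ctsa, Ctss, Lipa, Asah1, Psap, Npc1 and Tfe3) and 0 were lower. The same held for 6 of the 18 members not called at 72 h. Over all genes, 13.5% of those higher at 72 h and 10.8% of those not called were at least 2-fold higher in mAML, and of those lower at 72 h 8.3% were higher and 14.6% lower in mAML. Of 11 members lower at 72 h, Arsb and Cd63 had a lower level in mAML by the same rule and Grn and Npc2 a higher one. Grn fell by 1.32 on the log2 scale at 72 h and was 1.24 higher in mAML than in LSC. Mcoln1 rose by 1.27 at 72 h and differed by 0.19 between mAML and LSC. Cathepsin C and L genes went the other way round, with Ctsc at 3.28 and Ctsl at 2.65 in mAML and both at -0.48 at 72 h, without a call.

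**Figure D5:**
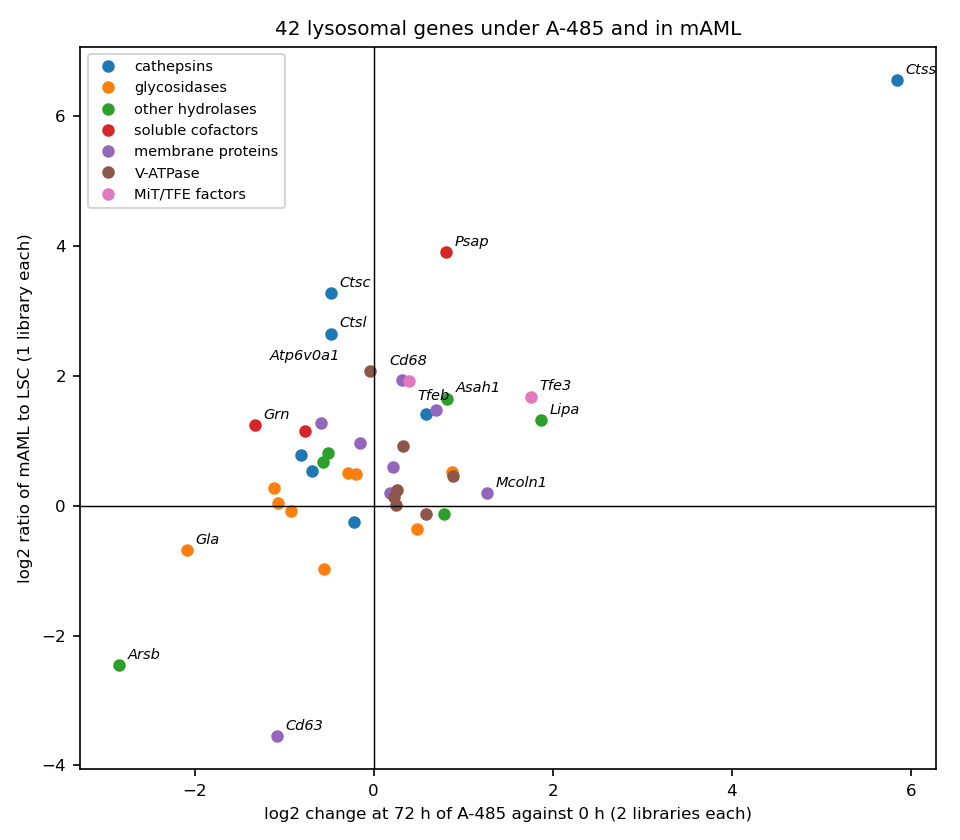
Log2 change at 72 h of A-485 against 0 h (horizontal) and log2 ratio of mAML to LSC (vertical) for 42 members, coloured by group. Ctss lies far out at 5.85 and 6.56, Arsb and Cd63 lie low on both axes, and Grn, Ctsc and Ctsl lie high on the vertical axis at negative changes on the horizontal one. Of these negative changes, those of Ctsc and Ctsl were not called.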

How the data were processed

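The submitters' processing notes name STAR, RSEM and mm9 for these mouse mRNA libraries. Versions and settings are not given in the sources used here, and each library has its own file. The authors deposited for each of 24328 genes an expected count, a TPM, an FPKM and 2 lengths, per the file headers. Expected counts as deposited estimate the reads of a gene and are not scaled; the deposited TPM and FPKM are scaled for length and depth, and FPKM served only to rank the members' levels as an alternative to TPM. No mm9 genome was at hand, so no coordinates are given in that build.

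Expected counts were rounded. Library totals stand in the report. The 10 time-course libraries were fitted together in edgeR 4.0.16 (R 4.3.3; TMM, filterByExpr, time as a factor, quasi-likelihood F test, Benjamini-Hochberg over 11119 genes). The standard error is the absolute log2 change divided by the root of F. The fit was tested on simulated data in which a small part of the genes changed, in both directions. That setting cannot show whether the scaling suits the real data, where many more genes were called. For single libraries, CPM after TMM had 5 added as prior count. The alternatives were other scalings, DESeq2 1.42.0, limma 3.58.1 on log2(TPM + 1) and log2(TPM + 0.1), other filters, a replicate block, a length trend, fits of 2 times only, fits without each library, and a fit without the 3 Wnt2-high libraries.

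The members, gene lists, tests and alternatives were chosen with earlier results of these data known. All members were reported; full values were given for Tfeb, Tfe3, the 3 members of each other group with the smallest adjusted p for any time, and the 2 with the largest ratio between single libraries. Members described in full beyond this rule, and genes outside the 43 (up to 2 rises and 2 falls a list, by smallest adjusted p), were chosen after their values were seen. Some genes are not reported here.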

Additional observations from a re-analysis of the deposited data

Results flagged for a closer look

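For 20 members the level at 72 h of A-485 differed from that at 8 h, by edgeR's quasi-likelihood test of the difference itself. The difference, 72 h minus 8 h on the log2 scale, was above 0 in 16. Among cathepsins it was 3.29 for Ctss, 1.07 for Ctsa and -0.75 for Ctsc. Among glycosidases it was -0.60 for Gla, 0.61 for Hexa, 0.59 for Man2b1 and 0.68 for Fuca1. The other hydrolases gave 0.59 for Asah1, 0.61 for Tpp1, 2.40 for Sgsh and -1.17 for Arsb, and Psap had 0.88. The membrane proteins gave 1.32 for Cd68, 1.0 for Laptm5 and 0.70 for Npc1. The V-ATPase genes gave 1.38 for Tcirg1, -0.55 for Atp6v1h and 0.54 for Atp6ap1. Tfeb had 0.87 and Tfe3 0.60. Both 8 h libraries of Sgsh were at 4.72 and 5.82 CPM and both 72 h libraries at 27.7 and 28.1 CPM. The call was lost for Tcirg1 without 8 h replicate 2 or 72 h replicate 2, for Tfe3 without 8 h replicate 1 or 72 h replicate 2, and for Tpp1 without any one of the 8 h and 72 h libraries. The calls of Tfeb and of Ctsc, Gla, Arsb and Atp6v1h, which had the negative differences, were also lost without single libraries, as given above.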

How the results depend on the processing

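Rises against 0 h that held under all 21 alternatives at every time were those of Lipa, Mcoln1 and Tfe3, and falls those of Gla, Arsb and Cd63. The counts of members moved most with scaling. Under library size alone 14 were higher at 8 h, 5 lower at 24 h, 7 lower at 48 h and 22 higher at 72 h. In limma on log2(TPM + 1), and equally with 0.1 added, 17 were higher at 8 h, 4 lower at 24 and 48 h, 25 higher and 4 lower at 72 h, and 0 lower at 72 h against 8 h, where the fit of only 2 times gave 1. With the length trend removed 6 were lower at 24 h. With log2 ratios of TPM + 1, 5 were higher in LSC than in GMP. Each library left out in turn, with the lone library of that time assumed to vary like the other times, gave 5 to 9 higher at 8 h, 6 to 10 lower at 24 h, 7 to 12 lower at 48 h and 1 to 5 lower at 72 h against 8 h. Signs turned under TPM (pseudocount 1; 0.1 added gave the same to 0.01) for Psap at 8 h (0.37), Lamp1 (0.17, 0.26, 0.54 and 0.56 at 8, 24, 48 and 72 h), Hexa (0.11, 0.26 and 0.41 at 24, 48 and 72 h; 0.42 with 0.1 added), Man2b1 (0.66 and 0.52 at 48 and 72 h), Ppt1 (0.17 at 48 and 72 h), Neu1 at 72 h (0.16) and Atp6v0a1 at 72 h (0.66; 0.67 with 0.1 added). Under library size alone they turned for Lamp1 (0.04 and 0.05 at 8 and 24 h), Man2b1 (0.34 at 48 h) and Atp6v0a1 (0.33 at 72 h). A sign change between 2 values that both missed the threshold was not counted. The all-gene median shifted by 0.31 to 0.69 against 0 h with these scalings. Deviations of same-numbered libraries from the mean of their time correlated from -0.46 to 0.66, with 3 of 10 pairs above 0.1. The Wnt2-high libraries were replicate 2 at 8 and 24 h and replicate 1 at 72 h. These correlations therefore cannot show whether the numbers pair libraries. With a replicate block in edgeR, 8 members were higher and 15 lower at 8 h and 12 and 11 at 72 h. The 24 h call of Npc1 and the 72 h call of Atp6v1b2 were lost (adjusted p = 0.0614 and 0.0505). The fit without the 3 Wnt2-high libraries was chosen after seeing the data. The cause of these shifts was not tested. Ctsh was not tested in the time course, where no library held more than 6 counts.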

Other observations

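The LSC library and the untreated 0 h libraries carry the same cell type label, and several members stood at different levels in them. Ctsh was at 85.21 TPM in LSC, from 3528 counts, and at 0.31 and 0.69 TPM at 0 h, from 3 and 6 counts. It had 1 count or 0 in each of the 8 treated libraries, and 422.13 TPM in mAML. Igf2r, the cation-independent mannose 6-phosphate receptor gene, was at 3.40 TPM in LSC, from 848 counts, and had 2 counts in each 0 h library. Cd63 was at 546 TPM in LSC and 1775 and 1544 TPM at 0 h, and Lipa at 44.9 TPM in LSC and 13.2 and 11.4 TPM at 0 h. The 2 kinds of library also differed in depth, and the study's labels give no date or batch for either.

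Within a time, the Wnt2-high library was above its partner in all 3 pairs for 12 of 42 members and below it in all 3 for 12. The share of all genes that did so was not counted, so whether this was particular to the members was not tested. Gaa was higher by 0.62, 0.94 and 0.55 on the log2 scale at 8, 24 and 72 h. Ctss was lower by these pairs at -1.39, -0.73 and -1.27, Ctsb at -0.63, -0.74 and -0.55, and Tcirg1 at -0.64, -0.60 and -1.07. In the 2 times without such a library, 0 and 48 h, the 2 replicates differed by 0.11 and 0.09 for Gaa, -0.02 and -0.08 for Ctsb, 0.01 and 0.24 for Tcirg1, and 0.73 and 0.67 for Ctss. Malat1, a nuclear RNA chosen after its values were seen, was at 266 and 272 CPM at 0 h and at 2853 and 3276 CPM at 72 h before TMM scaling, beside the rise in mean transcript length.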
